A study of Mus musculus with 4 samples.

Results

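The genes described here are 30 enzymes and carriers of the tricarboxylic acid (TCA) cycle, of the shuttles that link it to the cytosol, and of ketone body use. They were the rows of both deposited gene tables that carried 1 of the 30 gene names and reached 1 FPKM in at least 1 library. FPKM is fragments per kilobase of transcript and 1000000 fragments, a level per length. All 30 names were found and passed, of 12157 genes that did so in the 4 libraries; the members nearest the limit were Me3, Bdh1 and Pcx, whose highest library had 2.92, 3.49 and 5.41 FPKM.

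The series compared whole hearts of mice that lack both miR-1 genes, miR-1-1 and miR-1-2 (dKO), with control hearts labelled dHET (littermates, as stated for P2.5), at postnatal day 2.5 (P2.5) and embryonic day 15.5 (E15.5). Each of the 4 groups, P2.5 dKO, P2.5 dHET, E15.5 dKO and E15.5 dHET, was 1 library from mice of the strain labelled Sv129, with no further treatment labelled. Poly-A RNA was read over 100 bases, from a single end at P2.5 and from both ends at E15.5. How many hearts went into a library, and how the deletions were made, is not given in the sources used here. For E15.5 the table heads its control column WT although the sample label reads dHET, and dHET is the name used here. With 1 library per group no difference below has a replicate check, and no p-value was computed. Per-gene p and q values are quoted only where "the authors' deposited table" is named, and they compare libraries, not genotypes.

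The TCA cycle oxidises acetyl-CoA in the mitochondrial matrix and passes the electrons to the respiratory chain. The malate-aspartate shuttle carries the electrons of cytosolic NADH into the matrix, and the citrate carrier takes citrate the other way, to be split into cytosolic acetyl-CoA. The heart also oxidises ketone bodies: beta-hydroxybutyrate is turned into acetoacetate, which is activated with CoA taken from succinyl-CoA, an intermediate of the cycle, and then cleaved to acetyl-CoA. In mice, suckling after birth brings a fat-rich diet and higher circulating ketone bodies.

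Scaling totals recovered from the deposited values were 49900000 fragments in the dKO and 44600000 in the dHET library at P2.5, and 104000000 in the dKO and 86500000 in the dHET library at E15.5. Between 11514 and 11597 genes per library reached 1 FPKM. The labelled tissue was borne out by 10 of 10 cardiomyocyte markers being detected, at a summed 30070 FPKM in the dKO and 23310 FPKM in the dHET library at P2.5, and 12620 FPKM in the dKO and 13350 FPKM in the dHET library at E15.5. At P2.5 genotype coincided with sex: Xist had 50.7 FPKM in the dKO and 0.101 FPKM in the dHET library, while the Y-linked Eif2s3y had 0.0113 FPKM in the dKO and 36.1 FPKM in the dHET library. Both E15.5 libraries had Eif2s3y, at 25.1 FPKM in dKO and 28.6 FPKM in dHET, with little Xist. A difference between the P2.5 libraries by genotype and one by sex therefore cannot be told apart.

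Promoters of the 4 genes that were at least 1.5-fold higher in the P2.5 dKO heart are shown first, because these genes are the ones that differed most in the comparison below. They are RefSeq sequences on GRCm38.p6, 250 bases before to 50 bases after an annotated start, with these words in capitals, found as such or as their reverse complement: the E-box CACGTG, the CCAAT box, the GC box GGGCGG, the cyclic AMP element half-site TGACG and the estrogen-related receptor half-site AAGGTCA. The intervals are chr16:17928170-17928469 on the minus strand for Slc25a1, chr19:4510222-4510521 on the plus strand for the upstream start of Pcx, chr15:4026178-4026477 on the plus strand for Oxct1 and chr16:31422047-31422346 on the plus strand for the upstream start of Bdh1.
Slc25a1: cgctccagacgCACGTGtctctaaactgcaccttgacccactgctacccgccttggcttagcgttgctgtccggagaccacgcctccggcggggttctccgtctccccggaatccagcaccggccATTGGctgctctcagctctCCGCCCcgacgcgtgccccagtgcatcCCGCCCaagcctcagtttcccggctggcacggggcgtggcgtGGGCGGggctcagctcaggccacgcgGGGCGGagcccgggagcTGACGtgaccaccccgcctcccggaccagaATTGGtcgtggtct
Pcx: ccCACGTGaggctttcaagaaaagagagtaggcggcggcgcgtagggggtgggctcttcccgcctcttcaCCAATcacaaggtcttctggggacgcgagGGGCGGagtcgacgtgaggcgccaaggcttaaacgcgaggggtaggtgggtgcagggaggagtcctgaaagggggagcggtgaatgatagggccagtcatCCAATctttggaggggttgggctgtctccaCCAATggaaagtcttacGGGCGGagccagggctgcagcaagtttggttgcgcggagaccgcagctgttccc
Oxct1: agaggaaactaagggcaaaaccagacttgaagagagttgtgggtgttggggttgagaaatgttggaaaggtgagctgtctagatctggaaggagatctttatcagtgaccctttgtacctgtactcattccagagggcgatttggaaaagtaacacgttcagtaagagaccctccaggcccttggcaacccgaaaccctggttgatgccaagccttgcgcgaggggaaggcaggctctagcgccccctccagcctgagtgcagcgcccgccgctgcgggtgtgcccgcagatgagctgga
Bdh1: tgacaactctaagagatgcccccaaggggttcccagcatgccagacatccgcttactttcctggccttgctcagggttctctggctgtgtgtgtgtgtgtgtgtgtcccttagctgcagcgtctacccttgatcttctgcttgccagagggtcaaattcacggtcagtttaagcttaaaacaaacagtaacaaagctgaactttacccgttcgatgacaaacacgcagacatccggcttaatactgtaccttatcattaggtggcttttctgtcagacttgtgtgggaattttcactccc
The Slc25a1 promoter and the upstream Pcx promoter each held the E-box together with CCAAT and GC boxes, and Slc25a1 alone of the 4 shown also held TGACG. The Oxct1 and upstream Bdh1 windows held none of the 5 words. The table has a second start for Pcx (chr19:4594069-4594368), whose window held CCAAT alone, and for Bdh1 (chr16:31428503-31428802), whose window held the GC box alone. Across the 27 members with an entry there were 36 promoters, and the E-box was in 6 of them (16.7%, in Ogdh, Pcx, Slc25a1 and Slc25a13) against 7.15% of 32851 promoters in the table. CCAAT was in 22 member promoters (61.1%, against 37.41% of all), GGGCGG in 21 (58.3%, against 35.66%) and TGACG in 14 (38.9%, against 20.81%). AAGGTCA was in 2 (5.6%, against 4.72%), in Got1 and Ogdh, and its extended form TCAAGGTCA was in 0 of 36 (0.42% of all). Some windows of 1 gene overlap, as for Ogdh, and a word match is not a binding site.

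Words that pair with the miR-1 seed were looked for in the 3′ UTRs. Each share among the members rests on 2 genes of 30, too few to set the members apart from expressed genes. The word ACATTCC was in the longest annotated 3′ UTR of 2 of 30 members (6.67%, Aco1 and Acat1), against 11.02% of 11698 expressed genes, and CATTCCA was in 2 of 30 (6.67%, Slc25a1 and Acat1), against 12.8%. The windows of 30 bases around these words, from GENCODE M1 transcripts on NCBIM37 (the assembly of mm9) and read along the transcript, are shown with the word in capitals, since Slc25a1 is among the 4 genes whose promoters are shown and the Acat1 window joins both words into ACATTCCA.
Slc25a1 at bases 35 to 41 of 602: cccagctcctcCATTCCAgaccccccgcca
Slc25a1 at bases 450 to 456 of 602: tggcttcaccgCATTCCAggggctataggc
Acat1 at bases 1002 to 1009 of 2023: caacaaagaatACATTCCAggagaggaact
Aco1 at bases 1073 to 1079 of 1342: tgatggagtaaACATTCCgctgggggaggg
Bdh1, Oxct1 and Pcx held neither word in that UTR.

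**Figure D1:**
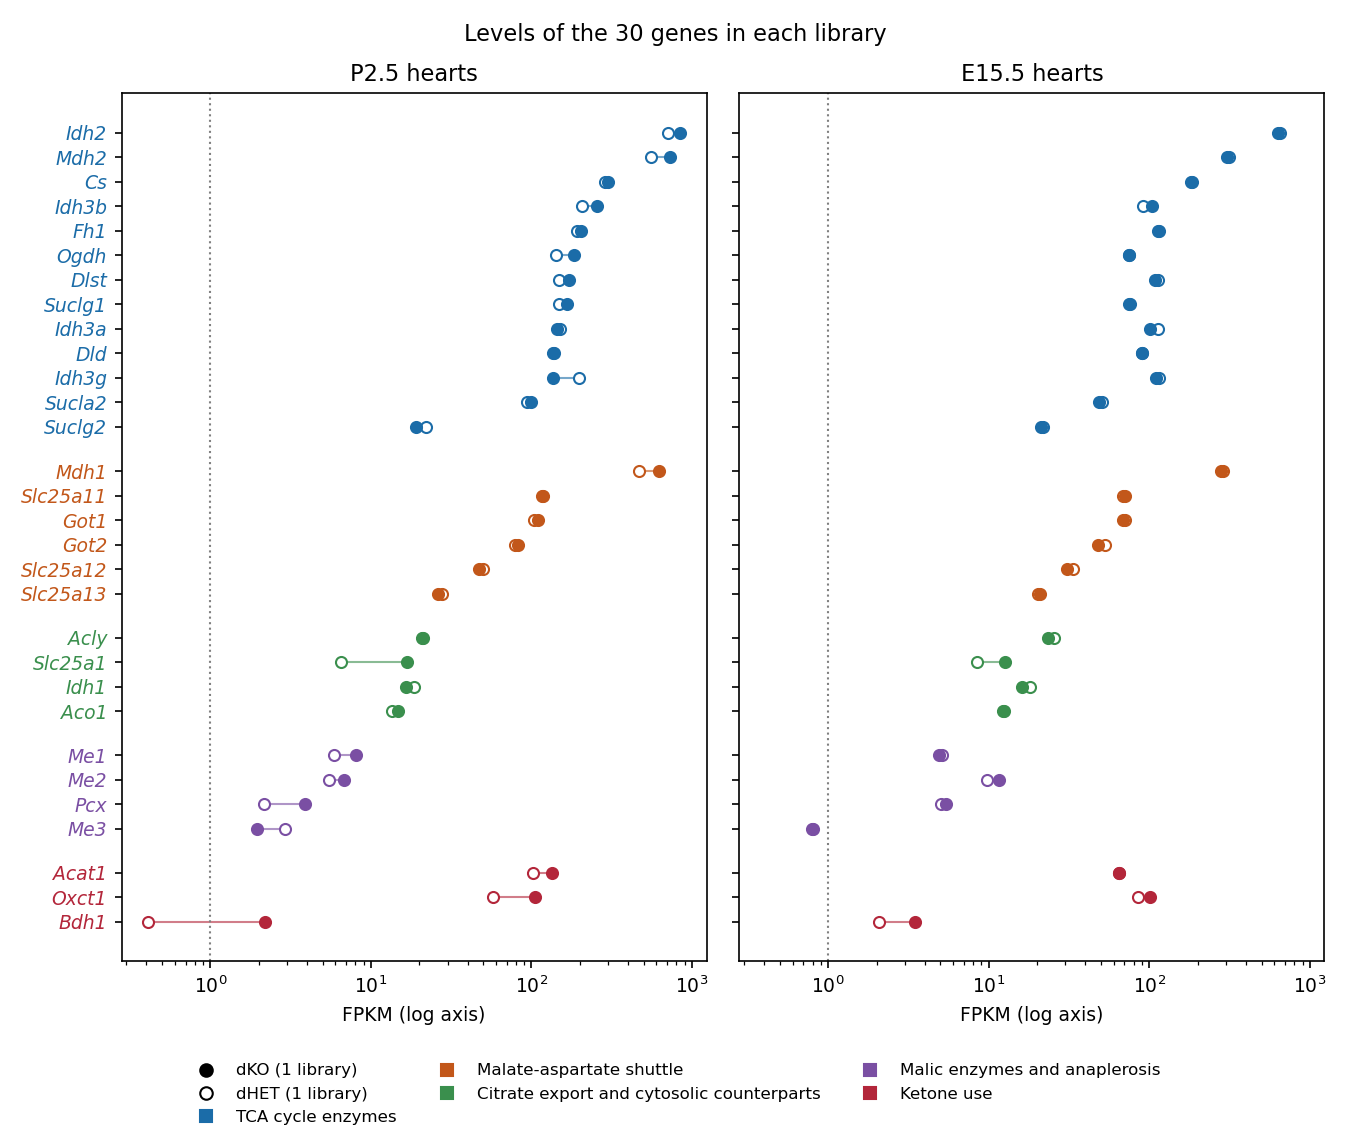
Level of each of the 30 genes in FPKM (log axis) in the dKO (filled) and dHET (open) library at P2.5 (left) and E15.5 (right), coloured by role, with 1 library per point and a dotted line at 1 FPKM. At P2.5 the pairs of Slc25a1, Bdh1, Oxct1 and Pcx lie well apart, while at E15.5 most pairs overlap.

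Most of the 30 genes differed by less than 1.5-fold between dKO and dHET hearts, and 4 stood out at P2.5. At that stage 4 of 30 members were at least 1.5-fold higher in dKO, Slc25a1, Bdh1, Oxct1 and Pcx, where 3.43% of all 11716 genes counted were, and 0 of 30 were at least 1.5-fold lower, where 1.36% of all genes were. Changes are log2((dKO FPKM + 1)/(dHET FPKM + 1)), so the fold of low genes is understated; a gene was counted at a stage where either library reached 1 FPKM. At E15.5, 0 of 29 members were 1.5-fold higher (0.486% of all 11721 genes) and 0 were 1.5-fold lower (0.725%). The members' median change at P2.5 was 0.10 beside 0.07 over all genes. At E15.5 the members' median was -0.02 and that of all genes -0.01. Slc25a1 and Bdh1 were the 2 members called significant at P2.5 in the authors' deposited table, both higher in dKO, as were 0.273% of the 13537 genes tested there; 0.133% were called lower. At E15.5 it called 0 members, and 0.291% higher and 0.645% lower of 14417 genes. In bulk tissue, fewer cells of a type and less RNA per cell cannot be told apart.

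The sign of small changes depended on scaling. At P2.5, 22 of 30 members were above 0 as deposited, 20 after centring on the median gene, 15 after scaling to the upper quartile and 13 after scaling to the FPKM sum. Set against all genes, the members' median was higher by between 0.03 and 0.04 under each of these scalings. A scaling shifts the members and all genes nearly alike, so this small difference could hardly move and its steadiness tests nothing. The 10 cardiomyocyte markers differed by a median log2 of 0.24 between the P2.5 libraries, with 7 of 10 above 0, and of -0.09 between those of E15.5, with 3 of 10 above 0. Markers of other cells also differed at P2.5, though those of fibroblasts and of smooth muscle were mixed in sign. For fibroblasts the median was -0.41, with 3 of 8 at least 1.5-fold lower but 2 of 8 above 0. For smooth muscle it was 0.48, with 3 of 7 at least 1.5-fold higher but 2 of 7 below 0. Among macrophage and leukocyte markers 0 of 6 were above 0, and the median was -0.29. The part of these markers in the members' changes was not tested. As a share of the FPKM sum the 30 genes took 1.59% in dKO and 1.55% in dHET at P2.5, and 1.19% in dKO and 1.21% in dHET at E15.5. The enzymes of the cycle made up 71.8% of the members' sum in dKO and 73.4% in dHET at P2.5, and ketone use made up 5.12% in dKO and 3.96% in dHET.

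**Figure D2:**
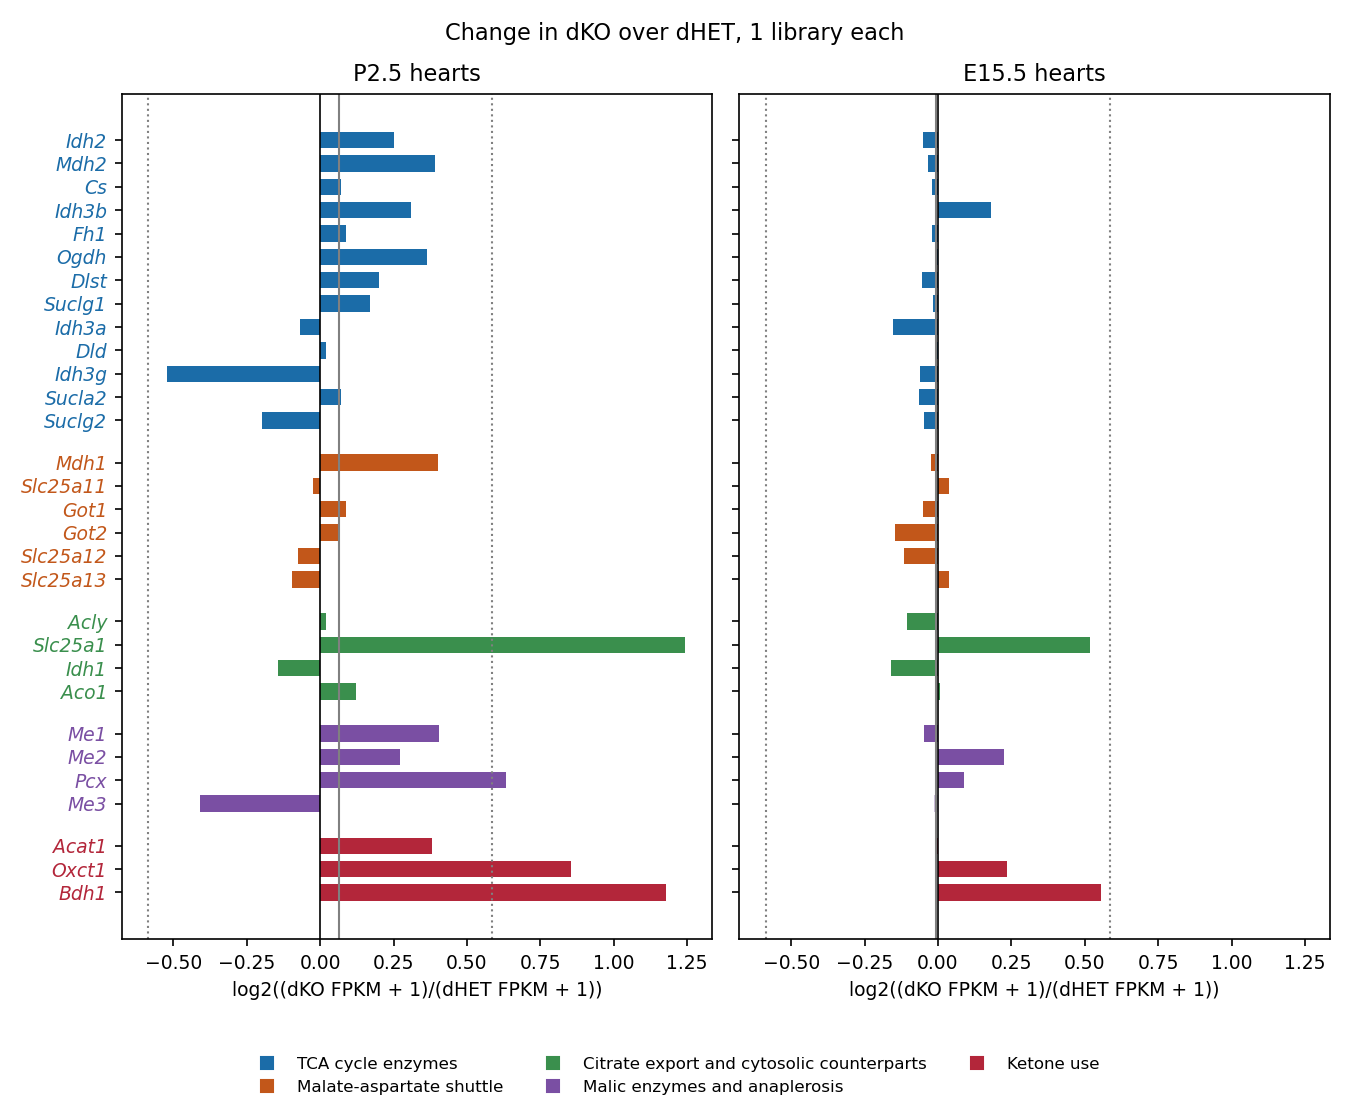
Change of each gene on the log2 scale, dKO over dHET, with 1 library each, at P2.5 (left) and E15.5 (right), coloured by role; dotted lines mark a fold of 1.5 and the grey line the median of all genes. At P2.5 the bars of Slc25a1, Pcx, Oxct1 and Bdh1 cross the upper dotted line, and at E15.5 none does.

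Of the 3 genes of ketone use, 2 were at least 1.5-fold higher in the P2.5 dKO heart and the third was 1.3-fold higher. Their median change at P2.5 was 0.85, the highest of the 5 roles, but with 3 genes it is the value of Oxct1 alone. Bdh1 was counted at P2.5 only through its dKO library. Its value therefore adds no support to this median, to this count or to the 4 of 30. Bdh1 (chromosome 16, 31422383 to 31458987 on mm9) encodes the mitochondrial dehydrogenase that turns beta-hydroxybutyrate into acetoacetate. It had 2.19 FPKM in dKO and 0.410 FPKM in dHET at P2.5, and 3.49 FPKM in dKO and 2.06 FPKM in dHET at E15.5. The dKO level was the higher at both stages, and the P2.5 dHET level was the lowest of the 30 at that stage. Its log2 change reached 1.18 at P2.5 (rank 33 from the top of 11716 genes) and 0.55 at E15.5 (rank 75 of 11721), just under the log2 of 0.585 for a fold of 1.5.

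Because Bdh1 is low, its fold depends on the pseudocount. The plain FPKM ratio was 5.34 at P2.5, with a 95% counting interval of 3.60 to 8.48, from an estimated 164 to 342 fragments in dKO and 27 to 57 in dHET, depending on the transcript length. At E15.5 the ratio was 1.69, with an interval of 1.46 to 1.97. These intervals cover counting error only. With a pseudocount of 5 FPKM the P2.5 log2 change was 0.41. The authors' deposited table gave Bdh1 0.0014 as its P2.5 q, and 0.303 at E15.5. Liver also expresses Bdh1: its markers Alb, Apoa1, Ttr and Afp summed to 0.225 FPKM in dKO and 0.327 FPKM in dHET at P2.5. Alb was listed at 0 in all 4 libraries, which need not mean absence, since a listed 0 may be an estimate that failed.

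Oxct1 (chromosome 15, 3970111 to 4105344 on mm9) encodes the CoA transferase that activates acetoacetate, the committing step of ketone use outside the liver. It had 106 FPKM in dKO and 57.9 FPKM in dHET at P2.5, and 101 FPKM in dKO and 85.3 FPKM in dHET at E15.5. Unlike Bdh1, Oxct1 was an abundant transcript in all 4 libraries, above at least 94.1% of the genes counted in each. Its log2 change was 0.85 at P2.5 (rank 111) and 0.23 at E15.5 (rank 799), and the P2.5 change stayed between 0.62 and 0.79 under the other scalings. The authors' deposited table gave it a p of 0.00389 and a q of 0.308 at P2.5. Of its exon bases, 12.6% overlap BC037032 on the opposite strand, which had 0.243 FPKM in dKO and 0.223 FPKM in dHET at P2.5; whether the libraries kept strand is not given in the sources used here.

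Acat1 encodes the mitochondrial thiolase that cleaves acetoacetyl-CoA into acetyl-CoA. It had 134 FPKM in dKO and 103 FPKM in dHET at P2.5, and 64.9 FPKM in dKO and 65.1 FPKM in dHET at E15.5. The P2.5 log2 change was 0.38 and the E15.5 change was -0.004, so this last enzyme of the route was level at E15.5 and under 1.5-fold at P2.5. All 3 genes of ketone use were above 0 at P2.5 under each of the 5 scalings run, including one relative to the cardiomyocyte markers, where Acat1 was at 0.15. Each scaling shifts all genes nearly alike, so the signs of changes this large could hardly turn.

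Slc25a1 (chromosome 16, 17925304 to 17928312 on mm9, minus strand) encodes the mitochondrial citrate carrier. It had 16.9 FPKM in dKO and 6.55 FPKM in dHET at P2.5, and 12.6 FPKM in dKO and 8.51 FPKM in dHET at E15.5. Within its library it stood above 72.0% of genes counted in dKO and 41.2% in dHET at P2.5, and above 63.9% in dKO and 48.7% in dHET at E15.5, a rank shift in the same direction at both stages. Its log2 change of 1.24 at P2.5 was the largest of the 30 with a pseudocount of 1 FPKM (rank 27 of 11716), whereas the plain ratio of Bdh1 was larger, and that of 0.52 at E15.5 the second after Bdh1 (rank 86). About 1413 fragments in dKO and 490 in dHET lay behind the P2.5 ratio of 2.58 (95% counting interval 2.32 to 2.86), and about 2198 in dKO and 1234 in dHET behind the E15.5 ratio of 1.48 (1.38 to 1.59). In the authors' deposited table its P2.5 q was 0.0132, that of E15.5 0.429. No other gene's exons overlap it and no near-identical copy of its transcript was found in the genome.

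The cytosolic enzymes next to exported citrate were close to level while their carrier was not. Acly, ATP citrate lyase, which splits citrate into acetyl-CoA and oxaloacetate, had 21.2 FPKM in dKO and 20.9 FPKM in dHET at P2.5, and 23.5 FPKM in dKO and 25.3 FPKM in dHET at E15.5. Aco1, the cytosolic aconitase that also acts as an iron-responsive RNA-binding protein, had 14.8 FPKM in dKO and 13.5 FPKM in dHET at P2.5, and 12.4 FPKM in dKO and 12.3 FPKM in dHET at E15.5. Idh1, the cytosolic NADP-linked isocitrate dehydrogenase, had 16.6 FPKM in dKO and 18.5 FPKM in dHET at P2.5, and 16.1 FPKM in dKO and 18.2 FPKM in dHET at E15.5. The log2 changes of Acly, Aco1 and Idh1 at P2.5 were 0.02, 0.12 and -0.14, against 1.24 for Slc25a1. At E15.5 they were -0.11, 0.01 and -0.16, against 0.52 for Slc25a1.

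Anaplerosis and the malic enzymes were, with Bdh1, at the low end of the 30. Pcx (chromosome 19, 4510472 to 4621752 on mm9) encodes pyruvate carboxylase, which refills the cycle with oxaloacetate. It had 3.88 FPKM in dKO and 2.15 FPKM in dHET at P2.5, and 5.41 FPKM in dKO and 5.03 FPKM in dHET at E15.5. The dKO library was the higher at P2.5, and the E15.5 libraries were nearly level. Its log2 change was 0.63 at P2.5 (rank 309) and 0.09 at E15.5, with a P2.5 ratio of 1.81 and a 95% counting interval of 1.59 to 2.04. That call was near the limit: the log2 change was 0.57 after centring on the median gene and 0.31 with a pseudocount of 5 FPKM. The authors' deposited table gave it a p of 0.095 and a q of 1.0 at P2.5.

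The 3 malic enzymes, which turn malate into pyruvate, differed in direction at P2.5. Me1, the cytosolic NADP-linked form, had 8.10 FPKM in dKO and 5.87 FPKM in dHET at P2.5 (log2 change 0.41), and 4.91 FPKM in dKO and 5.11 FPKM in dHET at E15.5 (-0.05). Me2, the mitochondrial NAD-linked form, had 6.82 FPKM in dKO and 5.48 FPKM in dHET at P2.5 (0.27), and 11.5 FPKM in dKO and 9.73 FPKM in dHET at E15.5 (0.23). Me3, the mitochondrial NADP-linked form, had 1.95 FPKM in dKO and 2.92 FPKM in dHET at P2.5 (-0.41), and 0.788 FPKM in dKO and 0.805 FPKM in dHET at E15.5, under the 1 FPKM needed to be counted. Me1 was 4.14 times Me3 in dKO and 2.01 times Me3 in dHET at P2.5, against 6.23 times in dKO and 6.35 times in dHET at E15.5. The Me3 ratio at P2.5, 0.668, had a 95% counting interval of 0.517 to 0.862. Of the Me1 transcript, 60.2% has a copy elsewhere in the genome at 95% identity or more, so its level is uncertain.

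Among the enzymes of the cycle, 0 of 13 passed 1.5-fold in either direction at either stage. Of all genes, 3.43% were higher and 1.36% lower at P2.5, and 0.486% higher and 0.725% lower at E15.5. A count of 0 among 13 is near these shares and does not set the enzymes apart. Their median change was 0.09 at P2.5, with 10 of 13 above 0 as deposited and 5 of 13 after scaling to the FPKM sum, and -0.04 at E15.5, with 12 of 13 below 0 as deposited and 7 of 13 after scaling to the upper quartile. Relative to the cardiomyocyte markers the direction turned, with 4 of 13 above 0 at P2.5 and 12 of 13 above 0 at E15.5. Of all genes, 7110 of 11716 were above 0 at P2.5 and 6144 of 11721 below 0 at E15.5 as deposited. Cs, citrate synthase, the entry of the cycle, had 300.3 FPKM in dKO and 286 FPKM in dHET at P2.5, and 181 FPKM in dKO and 184 FPKM in dHET at E15.5. Idh2, the mitochondrial NADP-linked isocitrate dehydrogenase, was the most abundant of the 30 in each library, at 841 FPKM in dKO and 706 FPKM in dHET at P2.5, and 634 FPKM in dKO and 656 FPKM in dHET at E15.5. As log2 differences, Cs stood at 0.07 at P2.5 and at -0.02 at E15.5, and Idh2 stood at 0.25 and -0.05.

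The 3 subunits of the NAD-linked isocitrate dehydrogenase, a rate-setting step of the cycle, differed in sign at P2.5. Idh3a, the catalytic alpha subunit, had 144 FPKM in dKO and 151 FPKM in dHET at P2.5, and 101 FPKM in dKO and 113 FPKM in dHET at E15.5. Idh3b, the beta subunit, had 258 FPKM in dKO and 207 FPKM in dHET at P2.5, and 104 FPKM in dKO and 91.5 FPKM in dHET at E15.5. Idh3g, the gamma subunit (chromosome X, 71024302 to 71032236 on mm9), had 137 FPKM in dKO and 197 FPKM in dHET at P2.5, and 110.3 FPKM in dKO and 115 FPKM in dHET at E15.5. In P2.5 dHET the gamma subunit was near the beta subunit in level, whereas in P2.5 dKO it was below both others.

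The log2 change of Idh3g at P2.5, -0.52, was the lowest of the 30 (rank 11483 of 11716), that of Idh3b was 0.31 and that of Idh3a -0.07. At E15.5 the changes of Idh3g, Idh3b and Idh3a were -0.06, 0.18 and -0.15. The Idh3g ratio of 0.694 at P2.5 had a 95% counting interval of 0.675 to 0.714, and the authors' deposited table gave it a p of 0.0658 and a q of 1.0. Centred on the median gene its change was -0.59 and scaled to the upper quartile -0.62, both past 1.5-fold. Idh3g is X-linked and the P2.5 dKO library has the female pattern; the 382 X-linked genes counted had a median change of -0.03, with 13 at least 1.5-fold higher and 5 lower, and sex and genotype cannot be told apart for this gene. The ratio of Idh3a to Idh3b was lower in dKO at both stages, at 0.558 in dKO and 0.727 in dHET at P2.5, and 0.976 in dKO and 1.23 in dHET at E15.5. The ratio of Idh3a to Idh3g was 1.05 in dKO and 0.765 in dHET at P2.5, and 0.920 in dKO and 0.979 in dHET at E15.5, so it was higher in dKO at P2.5 and lower in dKO at E15.5.

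The oxoglutarate dehydrogenase complex makes succinyl-CoA. Ogdh, its first and rate-setting component, had 184 FPKM in dKO and 142 FPKM in dHET at P2.5, and 74.6 FPKM in dKO and 75.0 FPKM in dHET at E15.5. Dlst, the succinyltransferase core, had 171 FPKM in dKO and 148 FPKM in dHET at P2.5, and 108 FPKM in dKO and 113 FPKM in dHET at E15.5. Dld, the dihydrolipoamide dehydrogenase shared with the pyruvate dehydrogenase complex, had 138 FPKM in dKO and 136 FPKM in dHET at P2.5, and 90.2 FPKM in dKO and 90.5 FPKM in dHET at E15.5. The P2.5 changes thus ran from 0.36 for Ogdh over 0.20 for Dlst to 0.02 for Dld, and at E15.5 the 3 lay between -0.06 and -0.004.

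Succinyl-CoA ligase turns succinyl-CoA into succinate. Sucla2, its ADP-forming beta subunit, had 99.3 FPKM in dKO and 94.4 FPKM in dHET at P2.5, and 48.4 FPKM in dKO and 50.6 FPKM in dHET at E15.5. Suclg1, the alpha subunit, had 167 FPKM in dKO and 149 FPKM in dHET at P2.5, and 75.1 FPKM in dKO and 76.0 FPKM in dHET at E15.5. Suclg2, the GDP-forming beta subunit, had 19.0 FPKM in dKO and 22.0 FPKM in dHET at P2.5, and 21.2 FPKM in dKO and 21.9 FPKM in dHET at E15.5. The ratio of Sucla2 to Suclg2 was 5.22 in dKO and 4.30 in dHET at P2.5, and 2.29 in dKO and 2.31 in dHET at E15.5. Of the Suclg2 transcript, 66.2% has a copy elsewhere in the genome, which makes its level uncertain.

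Fumarase, from Fh1, had 203 FPKM in dKO and 191 FPKM in dHET at P2.5, and 113 FPKM in dKO and 115 FPKM in dHET at E15.5. Mdh2, the mitochondrial malate dehydrogenase that closes the cycle and also serves the shuttle, had 732 FPKM in dKO and 557 FPKM in dHET at P2.5, and 306 FPKM in dKO and 314 FPKM in dHET at E15.5. Its cytosolic partner Mdh1 had 619 FPKM in dKO and 469 FPKM in dHET at P2.5, and 281 FPKM in dKO and 286 FPKM in dHET at E15.5. Mdh1 and Mdh2 stood close together in change: their P2.5 changes were 0.40 and 0.39, and their E15.5 changes -0.03 and -0.04. The ratio of Mdh1 to Mdh2 was therefore nearly the same in each pair of libraries, at 0.846 in dKO and 0.842 in dHET at P2.5, and 0.917 in dKO and 0.911 in dHET at E15.5. Scaled to the FPKM sum, the P2.5 changes of both were smaller, at 0.23 for Mdh1 and 0.22 for Mdh2.

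The remaining genes of the malate-aspartate shuttle were close to level. Got1, the cytosolic aspartate aminotransferase, had 109 FPKM in dKO and 103 FPKM in dHET at P2.5, and 68.3 FPKM in dKO and 70.9 FPKM in dHET at E15.5. Got2, the mitochondrial form, had 82.6 FPKM in dKO and 78.8 FPKM in dHET at P2.5, and 47.9 FPKM in dKO and 53.1 FPKM in dHET at E15.5. For Got2, 92.5% of the transcript has a copy elsewhere in the genome, so this level is uncertain. The 3 carriers followed the same pattern of small differences. Slc25a11, the malate-oxoglutarate carrier, had 117 FPKM in dKO and 119 FPKM in dHET at P2.5, and 70.9 FPKM in dKO and 68.9 FPKM in dHET at E15.5. Slc25a12, the aspartate-glutamate carrier that predominates in heart and muscle, had 47.4 FPKM in dKO and 49.99 FPKM in dHET at P2.5, and 30.8 FPKM in dKO and 33.5 FPKM in dHET at E15.5. Slc25a13, the carrier that predominates in liver, had 26 FPKM in dKO and 27.8 FPKM in dHET at P2.5, and 20.9 FPKM in dKO and 20.4 FPKM in dHET at E15.5. None of the 5 differed by more than 0.15 on the log2 scale at either stage, and Slc25a12 exceeded Slc25a13 in each library, 1.82-fold in dKO and 1.80-fold in dHET at P2.5.

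**Figure D3:**
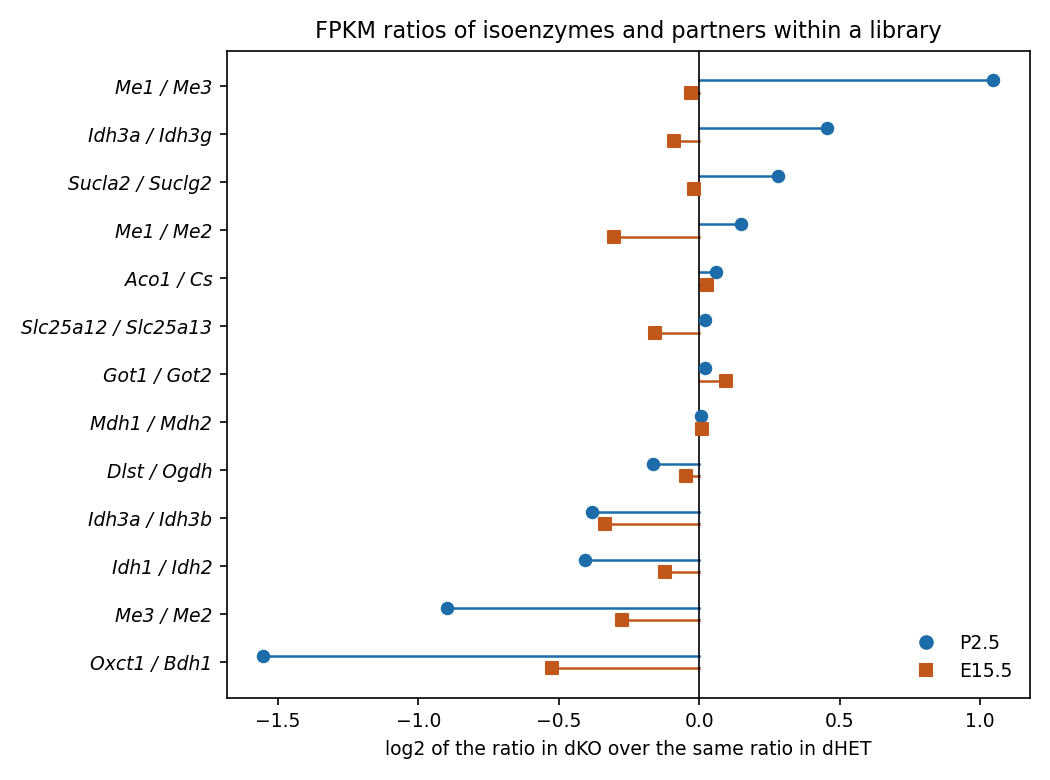
Quotient, on a log2 axis, of an FPKM ratio between partner enzymes in the dKO library over the same ratio in the dHET library, at P2.5 (circles) and E15.5 (squares); each point rests on 2 libraries. Mdh1 over Mdh2 lies at 0 at both stages, and Oxct1 over Bdh1, Idh1 over Idh2, Me3 over Me2, Idh3a over Idh3b and Dlst over Ogdh lie below 0 at both.

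Ratios between partners within a library do not depend on the library's scaling. Of 13 such ratios, that of Oxct1 to Bdh1 differed most without a pseudocount, at 48.2 in dKO and 141 in dHET at P2.5, and 28.8 in dKO and 41.4 in dHET at E15.5. Adding 1 FPKM to both genes brought the P2.5 values to 33.4 in dKO and 41.8 in dHET, a quotient of 0.799. On that scale the ratios of Me1 to Me3 and of Me3 to Me2 differed more, with quotients of 1.76 and 0.623. Idh2 exceeded its cytosolic counterpart Idh1 by 50.7-fold in dKO and 38.3-fold in dHET at P2.5, and by 39.3-fold in dKO and 36.1-fold in dHET at E15.5. The ratio of Got1 to Got2 was 1.33 in dKO and 1.31 in dHET at P2.5, and 1.43 in dKO and 1.33 in dHET at E15.5.

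The stages share no library, but their tables were normalised separately, so only the changes within each are set side by side. Of the 29 members counted at both, 12 had the same sign at both (41.4%), against 62.8% of all 11280 genes counted at both. The largest class, 15 members, was above 0 at P2.5 and below 0 at E15.5; 7 were above 0 at both, 5 below 0 at both and 2 below 0 and then above. These counts of small differences moved with scaling: 20 of 30 members had the same sign after scaling to the FPKM sum. The share of all genes under that scaling is not given here, so the members cannot be set against it. A log2 change of at least 0.32 at both stages was found for 2 members (6.9%), Slc25a1 and Bdh1, against 2.05% of all genes, and 0 members passed that size downwards at both or in opposite directions. Bdh1 was counted at P2.5 only through its dKO library, so it adds no support to this count or to the correlations that follow. Across the 29 genes Pearson's r between the stages' changes was 0.816 and Spearman's rho 0.586, against 0.365 and 0.383 over all genes; genes are not independent replicates. Without Slc25a1, Bdh1 and Oxct1, left out after their values were seen, r was 0.427 and rho 0.426 across 26 genes.

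**Figure D4:**
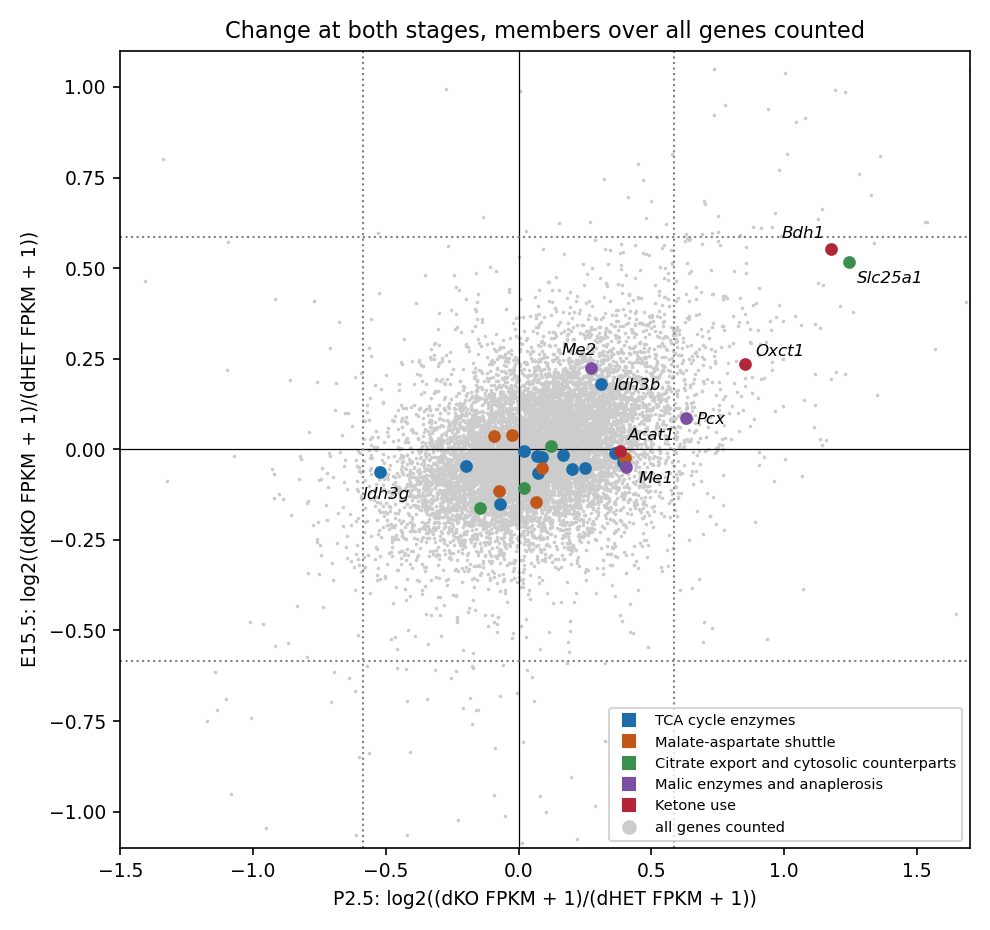
Change at P2.5 (horizontal) against change at E15.5 (vertical), dKO over dHET on the log2 scale, for 29 members coloured by role over all 11280 genes counted at both stages in grey; dotted lines mark a fold of 1.5, and genes beyond the axes are not drawn. Slc25a1 and Bdh1 lie apart at the upper right, Oxct1 to their lower left, and most members lie near 0 at E15.5.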

How the data were processed

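Whole-heart poly-A RNA of 4 libraries was measured, 1 per stage and genotype. The authors deposited 1 table per stage with FPKM per gene for both libraries; per the submitters' processing notes, TopHat, Bowtie and Cufflinks were used with the build mm9, no versions given. Per the file headers, the same tables hold the authors' log2 fold change and test statistic (taken as scores, since some entries are overflow values), p-value and q-value, besides a status flag. There were 86 displaced rows per stage, moved by commas in gene names, and they were realigned. Rows flagged OK, NOTEST or LOWDATA were used. Poly-A selection and multiple read matches can change a level, and how the authors treated such reads is not given in the sources used here.

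The change was log2((dKO FPKM + 1)/(dHET FPKM + 1)) within a stage, for genes with at least 1 FPKM in either library, and 1.5-fold was the limit for a count. No count model was run on the deposited FPKM. Scaling totals were recovered from FPKM steps of genes with 1 transcript: 78.8 to 81.1% of the low values came within 0.05 of a whole fragment. Fragment numbers behind 95% counting intervals (exact binomial) are estimates from these totals and transcript lengths, and cover counting error only. Copies were searched with minimap2 2.31, at 95% identity. Python 3.11.15, pandas 2.3.3, numpy 2.4.6 and scipy 1.17.1 were used, and the calculation was tested on simulated data.

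The members, their roles and the lists of other genes were chosen with earlier results of these data known. Every member is named; other pathway genes are named where past 1.5-fold at either stage or among the 3 of largest absolute change per stage. Some genes that this rule would name are not reported here.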

Additional observations from a re-analysis of the deposited data

How the results depend on the processing

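With 1 library per group no replicate could be left out, and no test was made. No paired analysis was possible because each group had 1 library and no result came from a test. A median that moved by less than 0.1 on the log2 scale was taken as unmoved. At P2.5 the median of all genes was 0.07 as deposited, -0.10 after scaling to an FPKM sum of 1000000 and -0.17 relative to the cardiomyocyte markers, an alternative chosen after seeing the data; of all genes past 1.5-fold, 71.7% were higher as deposited, 53.8% after centring on the median, 50.8% after upper quartile scaling and 32.1% after sum scaling. The members' P2.5 median was -0.064 with sum scaling and -0.13 relative to the cardiomyocyte markers.

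The 4 members at least 1.5-fold higher at P2.5 became 2 with a pseudocount of 5 FPKM, 2 of 25 with a minimum of 10 FPKM, 9 at a log2 change of 0.32 and 2 at 2-fold. In either direction 11 of 30 members passed that log2 size at P2.5, as did 2699 of 11716 genes. The 0 lower became 1 after centring and after upper quartile scaling (Idh3g), 2 after sum scaling and relative to the cardiomyocyte markers (Idh3g and Me3), and 2 past the same size downwards. The counts of all genes moved too. At P2.5, 402 of 11716 were 1.5-fold higher as deposited, 142 with a pseudocount of 5 FPKM and 212 of 5461 with a minimum of 10 FPKM. Lower were 159 as deposited, 238 after centring and 254 of 11732 after upper quartile scaling. They were 754 of 13221 after sum scaling and 664 of 11716 relative to the cardiomyocyte markers. At E15.5 the 0 higher became 1 with a pseudocount of 0.1 FPKM and 1 with sum scaling (Bdh1), where the pseudocount also weighs less. The 0 became 2 relative to the cardiomyocyte markers (Bdh1 and Slc25a1) and 2 at a log2 change of 0.32. Of all genes, 57 of 11721 were 1.5-fold higher at E15.5 as deposited and 123 with a pseudocount of 0.1 FPKM. With sum scaling 152 of 13555 were, and relative to the cardiomyocyte markers 106 of 11721. Members with the same sign at both stages were 20 with sum scaling and 19 with upper quartile scaling, and the shares of all genes under these scalings are not given here. Without the 20 genes of highest FPKM the members' share was 1.96% in dKO and 1.85% in dHET at P2.5, and 1.35% in dKO and 1.37% in dHET at E15.5. Pcx fell under 1.5-fold with 5 of the alternatives, at 0.31 to 0.57. No member past 1.5-fold changed sign under any alternative run. One alternative adjusted for transcript GC content and length, and with it 5 of the results compared moved, 1 was weaker and 53 stayed the same. It left 273 of 11408 genes at least 1.5-fold higher at P2.5, against 402 of 11716 as deposited. Slc25a1 (59.1% GC) and Pcx (57.7%) have the highest GC content of the 30. Of 52 partner ratios, 16 moved with a pseudocount of 1 FPKM.

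Depth limits Bdh1, Me3 and, at P2.5, Pcx, the members with the fewest fragments.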

Other observations

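Genes next to these routes were read from a list of 51, of which 43 were counted at each stage. Of these, 2 passed 1.5-fold upwards in the P2.5 dKO library and 0 downwards, with a median change of 0.21. At E15.5 0 were higher and 0 lower, with a median of 0.01. Of all genes, 3.43% were higher and 1.36% lower at P2.5, and 0.486% higher and 0.725% lower at E15.5. The counts are near these shares, so the genes named next do not set the list apart. Slc25a22, a mitochondrial glutamate carrier, had 18.9 FPKM in dKO and 11.1 FPKM in dHET at P2.5 (log2 change 0.72), and 9.81 FPKM in dKO and 8.23 FPKM in dHET at E15.5 (0.23). Pdk3, a pyruvate dehydrogenase kinase whose gene is X-linked, had 31.4 FPKM in dKO and 20.3 FPKM in dHET at P2.5 (0.61), and 36.3 FPKM in dKO and 34.8 FPKM in dHET at E15.5 (0.06). Pck2, the mitochondrial phosphoenolpyruvate carboxykinase, had 12.3 FPKM in dKO and 7.97 FPKM in dHET at P2.5 (0.57).

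Beside ketone use, 7 of 7 counted genes of ketone and acetyl-CoA handling were above 0 at P2.5, or 5 of 7 relative to the cardiomyocyte markers, with a median of 0.34, and 5 of 7 at E15.5, with a median of 0.15. As deposited, 7110 of all 11716 genes were above 0 at P2.5. Gpd1, the cytosolic glycerol phosphate dehydrogenase, had 1.17 FPKM in dKO and 1.78 FPKM in dHET at E15.5 (-0.36). Of the other enzymes of the cycle and genes listed with them, among them the subunits of succinate dehydrogenase, 10 were counted at P2.5 and 11 at E15.5. Of these, 0 passed 1.5-fold at either stage, which is near the shares of all genes given above. Their medians were 0.10 at P2.5 and 0.05 at E15.5.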
